A study of Mus musculus with 9 samples.

Results

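The 9 mouse genes Slc39a8, Slc39a14, Slc39a4, Slc39a10, Slc30a1, Slc30a5, Mt1, Mt2 and Mtf1 move, store or sense zinc, and they were followed by RNA-seq from the naïve to the primed pluripotent state. They were chosen by name, by the match of their symbols to the Ensembl IDs of the count table, and are 9 of the 54232 genes it lists. The choice was made with their values by state, by passage and in fibroblasts in view, so these values are given as a description and carry no test. Naïve mESCs were of 1 line, OG2, from C57BL6 × CBA mice with a GFP reporter under the distal promoter of Oct4, and the labels give the strain of every sample as C57 x CBA. They were kept in serum/LIF (S/L) medium on mitomycin C-treated mouse embryonic fibroblasts (MEFs) as feeders. Primed mEpiSCs were made from them in medium with bFGF and Activin A (F/A), also on feeders. There were 2 libraries of each state at passage 5 (P5) and 2 at passage 15 (P15), and 1 library of MEFs alone with no replicate. F/A medium holds supplements in place of fetal bovine serum, so the effects of state and of medium cannot be told apart. The RNA-seq methods do not say whether feeders were removed before RNA was taken, whereas the ChIP methods say that they were. In bulk RNA, fewer cells of a type and less RNA per cell cannot be told apart.

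Zinc enters the cytosol through the ZIP transporters (Slc39 genes) and leaves it, for the outside or for organelles, through the ZnT transporters (Slc30 genes). Metallothioneins are small cysteine-rich proteins that bind zinc, copper and cadmium in the cytosol. When free zinc rises, the zinc finger factor MTF1 enters the nucleus, binds metal response elements and raises the transcription of metallothionein genes and of the exporter Slc30a1, so the levels of these mRNAs are widely used as a readout of cell zinc.

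The promoter windows of the 3 textbook target genes of MTF1 among them are shown because the metallothionein and exporter results turn on these genes. Each is the RefSeq window from 250 bases before to 50 bases after the transcription start on GRCm38.p6, 5′ to 3′, and all 3 lie on the plus strand. Capitals mark the core of the metal response element, searched as TGCACNC or TGCGCNC on both strands, where N is any base. The positions are chr8:94178839-94179138 for Mt1, chr8:94172368-94172667 for Mt2 and chr1:191906531-191906830 for Slc30a1.
Mt1: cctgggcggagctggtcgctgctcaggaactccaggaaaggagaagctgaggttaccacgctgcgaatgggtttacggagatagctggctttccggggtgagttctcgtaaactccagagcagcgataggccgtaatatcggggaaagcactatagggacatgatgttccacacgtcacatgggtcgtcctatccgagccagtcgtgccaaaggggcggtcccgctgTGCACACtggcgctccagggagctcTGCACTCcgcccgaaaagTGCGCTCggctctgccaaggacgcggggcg
Mt2: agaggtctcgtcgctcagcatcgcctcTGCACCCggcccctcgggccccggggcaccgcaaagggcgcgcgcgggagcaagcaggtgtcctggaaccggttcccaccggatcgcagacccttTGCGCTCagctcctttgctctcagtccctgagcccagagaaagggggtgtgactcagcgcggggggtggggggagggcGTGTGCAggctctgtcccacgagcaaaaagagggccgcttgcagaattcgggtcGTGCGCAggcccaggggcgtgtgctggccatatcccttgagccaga
Slc30a1: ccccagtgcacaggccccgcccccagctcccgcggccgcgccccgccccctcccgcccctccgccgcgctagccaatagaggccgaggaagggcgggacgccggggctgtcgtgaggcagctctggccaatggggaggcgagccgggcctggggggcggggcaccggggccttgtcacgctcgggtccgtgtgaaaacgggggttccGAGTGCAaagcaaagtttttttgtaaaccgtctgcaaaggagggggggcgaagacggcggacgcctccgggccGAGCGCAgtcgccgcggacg
The Mt1 window held 3 cores, all on the strand shown, the first of them starting 23 bases before the annotated start. Positions hold for the RefSeq start of each window only. Bases outside the window were not searched, so these are not all the cores of a promoter. The Mt2 window held 4, of which 2 read on the other strand, and the Slc30a1 window held 2, both on the other strand. Among all 32851 promoter windows of the same length, 25.7% held at least 1 core, 7.11% at least 2, 1.97% at least 3 and 0.517% at least 4. Windows were matched for 7 of the 9 genes, and 5 of these 7 held a core. This count is per gene and the shares above are per window, so they are not on the same basis. Slc30a5 had 1 and Slc39a8 had 1 in 1 of its 2 windows, whereas neither Mtf1 nor either window of Slc39a10 had any. Slc39a4 and Slc39a14 had no match. A match is a run of letters and not a measured site.

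The 8 libraries of naïve and primed cells had total counts of 14378051 to 20985136 and the MEF library 25646547, so that 3 counts, the limit a count of 0 allows, equal 0.128 to 0.221 CPM. CPM are counts relative to the library size after TMM scaling over all 9 libraries, errors are SDs over the 2 libraries of a group, and log2 fold changes are primed over naïve with the SE of the fit. All 6 naïve state markers were lower and all 5 primed state markers were higher in primed mEpiSCs at both passages, as called by edgeR's quasi-likelihood test (adjusted p under 0.01, at least 2-fold). The summed level of 16 fibroblast markers, none at 0 in any library, was 6018 to 6036 CPM in naïve P5, 10968 to 11376 in naïve P15, 3910 to 3987 in primed P5 and 10591 to 10892 in primed P15, against 61784 in MEFs. The median ratio of these markers to MEFs, used below as a feeder share, was 12.8% to 25.5%, but the lowest marker gave 0.457% to 6.61% and the highest 44.3% to 354%, so the share is not well fixed. The markers went both ways, with 3 called higher in primed mEpiSCs and 6 lower at P5 and 4 and 2 at P15. Dcn, the highest ratio in primed libraries, was at 457 to 749 CPM in primed libraries against 211 CPM in MEFs. Of 13 primitive and visceral endoderm markers, 10 were tested, of which 7 were called higher in primed mEpiSCs at each passage and 2, Amn and Cubn, were called lower at P5. Their summed level was 44.4 to 71.0 CPM in naïve, 226 to 264 in primed and 230.2 in MEFs, while the yolk sac markers Afp and Ttr were at or near 0 in the naïve and primed libraries. The MEF sum was mostly Dab2, at 165 CPM against 31.0 to 105.6 in the naïve and primed libraries. In MEFs Gata6 was at 38.8 CPM and Gata4 at 11.0, but Sox17, Sox7, Foxa2 and Hnf4a at only 0.128 to 0.680. The part of feeder or endoderm RNA in the levels of the 9 genes was not tested beyond the values given with each.

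All 9 genes passed the filter on low counts in every fit. At P5, 1 of them (Slc39a8) was called higher in primed mEpiSCs, where 13.5% of all 16482 genes tested were, and 3 (Slc30a1, Mt1 and Mt2) were called lower, where 8.85% were. At P15 1 was called higher and 4 lower, Slc39a4 being added to the same 3, against 12.2% and 11% of 15733 genes. The median log2 fold change of the 9 genes was -0.18 at both passages, against 0.0078 for all genes at P5 and -0.0039 at P15. Scaled by library size alone, which moved the median of all genes to 0.21 at P5 and 0.10 at P15, the median of the 9 turned to 0.02 at P5. Nothing is read from these counts, since the genes were chosen with the same contrasts known.

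**Figure D1:**
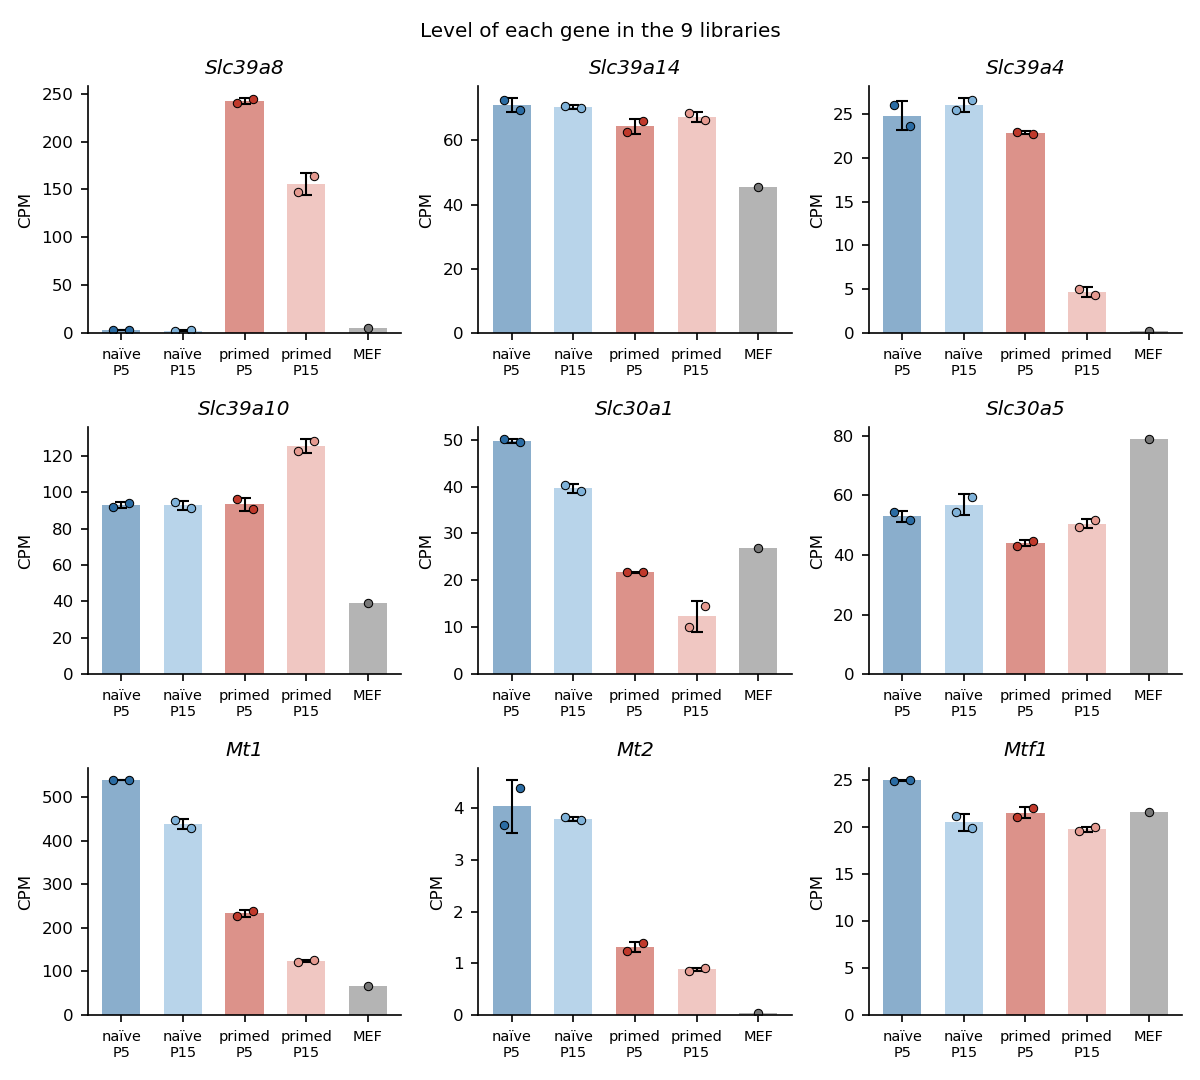
Level of the 9 genes (CPM, y axis from 0 and scaled for each gene) in the 2 states at each passage and in MEFs. Points are libraries, bars are group means and error bars are SDs of 2 libraries (MEF, 1 library). Slc39a8 is high in the 4 primed libraries, Slc30a1, Mt1 and Mt2 are high in the 4 naïve ones, and Slc39a4 is low in primed P15 and in MEFs.

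Among the importers, Slc39a8 showed the widest contrast. It encodes ZIP8, which carries zinc, manganese and iron across the plasma membrane, and lies on chr3:135825279-135888572 (plus strand, GRCm38). It stood at 2.88 and 2.77 CPM in naïve P5, 2.43 and 2.81 in naïve P15, 240.1 and 245 in primed P5, 147 and 164 in primed P15 and 4.98 in MEFs. All 4 primed libraries lay far above all 4 naïve ones, and both primed P5 libraries lay above both primed P15 libraries. The log2 fold change was 6.45 (SE 0.07) at P5, which placed Slc39a8 at rank 61 from the top of 16482 genes, and 5.87 (SE 0.11) at P15, at rank 89 of 15733. Between P5 and P15 it changed by -0.67 (SE 0.05) on the log2 scale in primed mEpiSCs and by -0.11 (SE 0.20) in naïve mESCs. The MEF library held 2.05% of the primed P5 mean and 3.20% of the primed P15 mean, a level above every naïve library. With the median feeder share of the MEF profile taken off, the log2 fold changes were 6.83 and 6.57.

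Genes with a profile like that of Slc39a8 were looked for next. Over the 8 naïve and primed libraries, the centred log2(CPM + 1) profile nearest to it among 10000 other genes was that of Cyp26a1, which clears retinoic acid, with a root mean square difference of 0.06. Cyp26a1 was at 0.516 to 0.696 CPM in the naïve libraries, 102 and 106 CPM in primed P5 and 69.1 and 72.9 CPM in primed P15. Its naïve levels lie under the pseudocount of 1, which compresses its contrast on this scale, and in the count fit its log2 fold change was 7.41 at P5 where that of Slc39a8 was 6.45. The next were T (Brachyury), a primitive streak factor, at a difference of 0.32, and Lhx1, a factor of the anterior mesendoderm, at 0.33. Unlike Slc39a8, both were higher in each primed P15 library than in each primed P5 library.

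The other importers were less divided by state. Slc39a4 encodes ZIP4, the apical importer that takes up dietary zinc in the gut, on chr15:76612383-76617384 (minus strand). It was at 26.0 and 23.7 CPM in naïve P5, 25.5 and 26.6 in naïve P15, 23.0 and 22.7 in primed P5, 5.05 and 4.32 in primed P15, and 0.213 in MEFs (5 counts). Only the primed P15 libraries stood apart among the cultured cells, although the naïve and primed values did not overlap at P5 either. The log2 fold change was -0.09 (SE 0.09) at P5, where it changed sign with scaling by library size alone, and -2.49 (SE 0.14) at P15, and the change with passage was -2.32 (SE 0.13) in primed mEpiSCs against 0.07 (SE 0.10) in naïve mESCs. Slc39a4 was the 1 gene of the 9 called for the difference of the state effect between passages (-2.38, SE 0.16) and the 1 called for passage in primed mEpiSCs. The backgrounds were 7.16% of 16926 genes in either direction for the difference and 7.89% lower for passage. None was called higher at P15 in primed mEpiSCs (2.83% of genes), and none higher (0.461%) or lower (0.851%) in naïve mESCs. Nothing is read from these calls either, since the genes were chosen with their values by state and passage known.

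The profiles nearest to Slc39a4 were those of Susd2, a membrane protein gene (difference 0.14), Bspry (0.21) and Cdh1 (0.22). Cdh1, which encodes the epithelial adhesion protein E-cadherin, was at 399 to 425 CPM in naïve libraries, 488 and 474 CPM in primed P5, 121 and 119 CPM in primed P15 and 0.808 CPM in MEFs.

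Slc39a14 encodes ZIP14, a close relative of ZIP8 that also carries iron and manganese, on chr14:70303469-70351425 (minus strand). Its levels were 72.6 and 69.6 CPM in naïve P5, 70.7 and 69.9 in naïve P15, 62.7 and 66.1 in primed P5, 68.5 and 66.2 in primed P15 and 45.4 in MEFs. Naïve and primed libraries did not overlap, but the log2 fold changes were small, -0.11 (SE 0.05) at P5 and -0.07 (SE 0.07) at P15, and they changed sign when counts were scaled by library size alone. Its nearest profiles were those of Rnf220, Ddx23 and Zc3h13, at differences of 0.02 to 0.03. Slc39a14 thus stayed near 1 level in all 8 libraries, where its relative Slc39a8 covered the span from 2.43 to 245 CPM.

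Slc39a10 encodes ZIP10, a plasma membrane importer, on chr1:46807544-46892852 (minus strand). It was at 91.8 and 94.3 CPM in naïve P5, 94.4 and 91.1 in naïve P15, 96.0 and 91.0 in primed P5, 123 and 128 in primed P15 and 38.9 in MEFs. The groups overlapped at P5 (log2 fold change 0.04, SE 0.05) and both primed P15 libraries lay above the other 6 (0.43, SE 0.07, at P15). Its level in MEFs was below that of all 8 libraries, as it was for Slc39a14, Slc39a4, Mt1 and Mt2, while 32.1% of 16926 genes were lower and 28.6% higher in MEFs than in all 8.

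The exporter Slc30a1 was the transporter with the opposite contrast to Slc39a8. It encodes ZnT1, which pumps zinc out across the plasma membrane, on chr1:191906767-191913247 (plus strand). It was at 50.1 and 49.4 CPM in naïve P5, 40.4 and 39.0 in naïve P15, 21.7 and 21.7 in primed P5, 9.98 and 14.6 in primed P15 and 26.9 in MEFs. The 4 groups did not overlap, and the MEF library lay between the naïve and the primed ones. The log2 fold change was -1.16 (SE 0.07) at P5 and -1.70 (SE 0.12) at P15, and with passage the level changed by -0.33 (SE 0.09) in naïve mESCs and -0.85 (SE 0.11) in primed mEpiSCs. As MEFs held 219% of the primed P15 mean, this value moves with the feeder share, and with the median share taken off it was -2.52 at P15. The primed P15 libraries also differed from each other, and the value at P15 was -1.43 without replicate 1 of that group and -1.97 without replicate 2.

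Slc30a5 encodes ZnT5, which loads zinc into the early secretory pathway, on chr13:100802648-100833427 (minus strand). It was at 54.4 and 51.8 CPM in naïve P5, 54.4 and 59.5 in naïve P15, 43.2 and 44.7 in primed P5, 49.5 and 51.6 in primed P15 and 79.1 in MEFs. Primed libraries lay below naïve ones by -0.24 (SE 0.06) at P5 and -0.18 (SE 0.08) at P15 on the log2 scale, and MEFs lay above all 8.

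Mt1, on chr8:94179082-94180327 (plus strand), encodes the metallothionein that is made in most tissues. It was at 539 and 539.7 CPM in naïve P5, 446 and 429.5 in naïve P15, 228 and 239 in primed P5, 123 and 126 in primed P15 and 65.7 in MEFs. The 4 groups were fully separated, in descending order naïve P5, naïve P15, primed P5 and primed P15, the same order as for Slc30a1. The log2 fold change was -1.17 (SE 0.04) at P5 and -1.83 (SE 0.06) at P15, and the change with passage was -0.31 (SE 0.04) in naïve mESCs and -0.94 (SE 0.05) in primed mEpiSCs. MEFs held 12.2% of the naïve P5 mean and 52.8% of the primed P15 mean. The nearest profiles were those of Gls2, a mitochondrial glutaminase gene, Gcnt2 and Hbegf, at differences of 0.11 to 0.12. Mt1 is short and close in sequence to its paralogs, and the sources used here do not say how a read that aligns to more than 1 place was handled.

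Mt2 lies beside Mt1 on chr8:94172664-94173568 (plus strand) and encodes the second metallothionein of most tissues. It was at 3.68 and 4.40 CPM in naïve P5, 3.83 and 3.77 in naïve P15, 1.24 and 1.39 in primed P5, 0.861 and 0.909 in primed P15 and 0.0425 in MEFs. These rest on 74 and 89, 52 and 59, 25 and 25, 15 and 16, and 1 counts. The naïve and primed libraries did not overlap at either passage, with log2 fold changes of -1.59 (SE 0.27) at P5 and -2.10 (SE 0.34) at P15, the direction seen for Mt1. Yet Mt2 had only 0.545% to 0.879% of the counts of Mt1 in the 8 libraries, and 0.0647% in MEFs. The nearest profiles were those of Ifrd1, Aplp1 and Ect2, at differences of 0.07 to 0.08 on log2(CPM + 1), a scale that compresses a gene as low as Mt2.

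The level of Mt2 is uncertain. In GENCODE M21 a single exon of Gm45774, a gene of the opposite strand, shares 432 of the 588 exon bases of Mt2 (73.5%), and only 156 bases at its 3′ end are free. The kit named in the labels does not mark strand, and reads of the shared bases then cannot be given to 1 gene. Gm45774 itself had 0 to 28 counts in a library. The contribution of this overlap to the low Mt2 counts was not tested. Overlap was smaller elsewhere, with 8.92% of the exon bases of Slc30a1 shared with 1700034H15Rik (1 to 7 counts) and 8.09% of those of Mtf1 with 1110065P20Rik (171 to 660 counts). The other 6 genes shared no exon base with another gene.

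**Figure D2:**
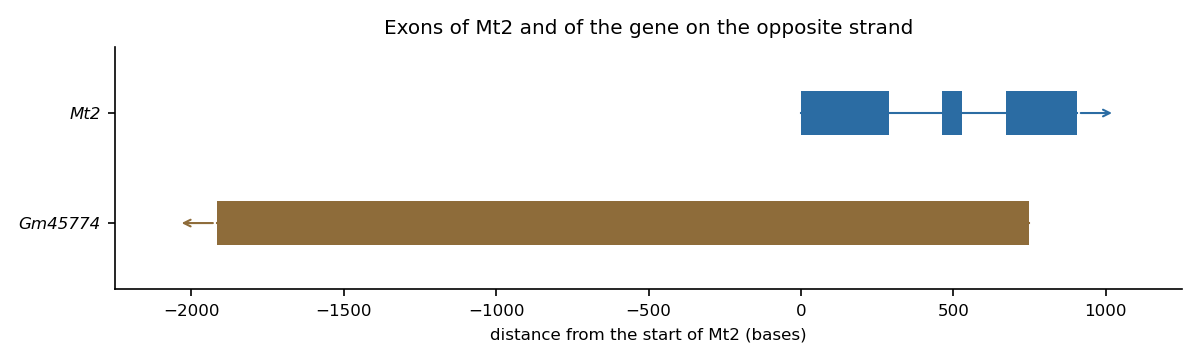
Exons (boxes) of Mt2 and of Gm45774 against the distance in bases from the start of Mt2, with arrows for the direction of transcription. The exon of Gm45774 covers 432 of the 588 exon bases of Mt2 and leaves 156 bases at the 3′ end of Mt2 free.

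Mtf1, on chr4:124802104-124849800 (plus strand), encodes the metal sensor itself. It was at 24.9 and 25.0 CPM in naïve P5, 21.1 and 19.8 in naïve P15, 21.1 and 22.0 in primed P5, 19.6 and 19.9 in primed P15 and 21.6 in MEFs. At P5 the 2 states did not overlap and at P15 they did, and the log2 fold changes were -0.18 (SE 0.09) and -0.06 (SE 0.11), both of which turned positive with scaling by library size alone. The mRNA of the sensor covered a narrow range, 19.6 to 25.0 CPM, in which MEFs also lay.

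Levels of different genes were set side by side per kilobase of exon. Mt1 was first in every library, at 433 CPM per kb on average in naïve P5 and 99.9 in primed P15. In naïve P5 it was followed by Slc39a10 (15.3 CPM per kb), Slc30a1 (9.49) and Slc39a4 (7.99). Slc30a5 (7.28), Mt2 (6.87) and Slc39a14 (6.74) came next with overlapping ranges, then Mtf1 (2.80) and last Slc39a8 (0.369). The value of Mt2 is per kilobase of all its 588 exon bases, of which 432 are shared with Gm45774. Its level may thus be too low here, and its place in this order is uncertain. In primed P5, Slc39a8 came second at 31.6 CPM per kb, above Slc39a10 at 15.3, while Slc30a1 stood at 4.14. In primed P15, Slc39a8 (20.3) and Slc39a10 (20.6) had overlapping ranges.

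Set against the whole families, Slc39a8 was rank 12 of the 14 ZIP genes per kilobase in each naïve library and rank 2 or 3 in each primed one. Its share of the summed ZIP level was 0.291% to 0.364% in naïve, 20.47% and 20.98% in primed P5, and 12.4% and 13.5% in primed P15. The summed ZIP level was 102 to 109 CPM per kb in naïve and 152 to 158 in primed libraries. With Slc39a8 left out it was 101 to 109 against 120.3 to 137, so the libraries still did not overlap. MEFs stood above all of these, at 190.3 with Slc39a8 and 189.6 without it. The median feeder share was 15.8% and 17.2% in naïve P15 against 25.2% and 25.5% in primed P15. At P5 it was 13.3% and 13.4% in naïve against 12.9% and 12.8% in primed libraries. The part of feeder RNA in the summed levels was not tested. Slc39a1, which is no member, led the family in all 9 libraries. Slc30a1 was rank 1 or 2 of the 10 ZnT genes in naïve libraries, rank 4 or 5 in primed P5 and rank 6 or 7 in primed P15. Its share of the summed ZnT level was 20.5% to 25.8% in naïve and 5.01% to 11.3% in primed libraries. The summed ZnT level was 36.1 to 37.4 CPM per kb in naïve and 36.8 to 39.2 in primed libraries, ranges that overlapped.

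**Figure D3:**
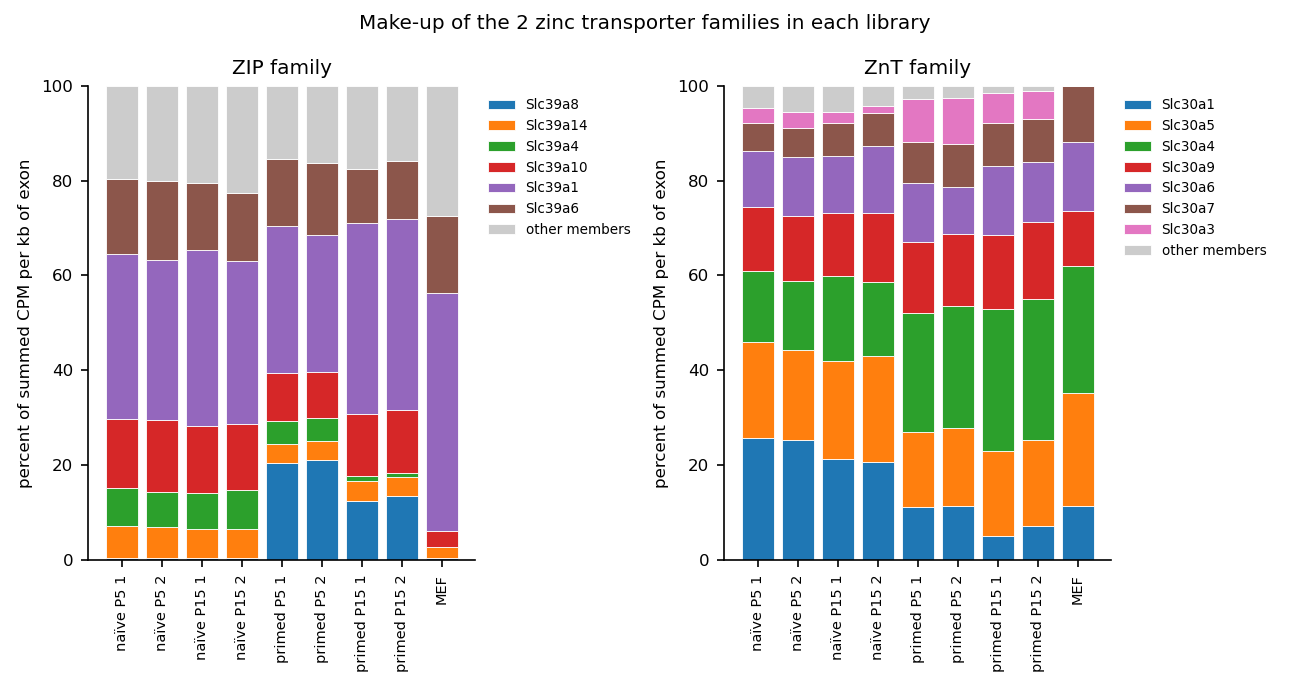
Share of each gene in the summed level (CPM per kilobase of exon, percent) of the 14 ZIP genes and of the 10 ZnT genes in each of the 9 libraries. Slc39a8 takes 12.4% to 20.98% of the ZIP level in primed libraries and 0.291% to 0.364% in naïve ones, and the share of Slc30a1 is 20.5% to 25.8% in naïve libraries and 5.01% to 11.3% in primed ones.

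The rest of both families, 10 ZIP and 8 ZnT genes, was tested as what remains of the complete families once the 9 genes are taken out. At P5, 2 of the 16 genes that passed the filter were called higher in primed mEpiSCs and 0 lower, and at P15 2 of 15 were called higher and 2 lower. Of all genes, 13.5% were called higher and 8.85% lower at P5, and 12.2% and 11% at P15. Their median log2 fold change was 0.33 at P5 and 0.28 at P15, against 0.0078 and -0.0039 for all genes. By the adjusted p alone, at any fold, 8 were higher and 1 lower at P5, and 9 and 2 at P15, where 31.2% of all genes were higher and 31.1% lower at P5 and 28.2% and 28.4% at P15. These remaining genes were thus mostly within a 2-fold range, as the plot of fold changes shows. The complete families are not described by this, since Slc39a8, Slc30a1 and Slc39a4 were among the genes taken out. Slc39a12 and Slc30a8 did not pass the filter at either passage, and Slc30a10, which also exports manganese, did not pass at P15.

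**Figure D4:**
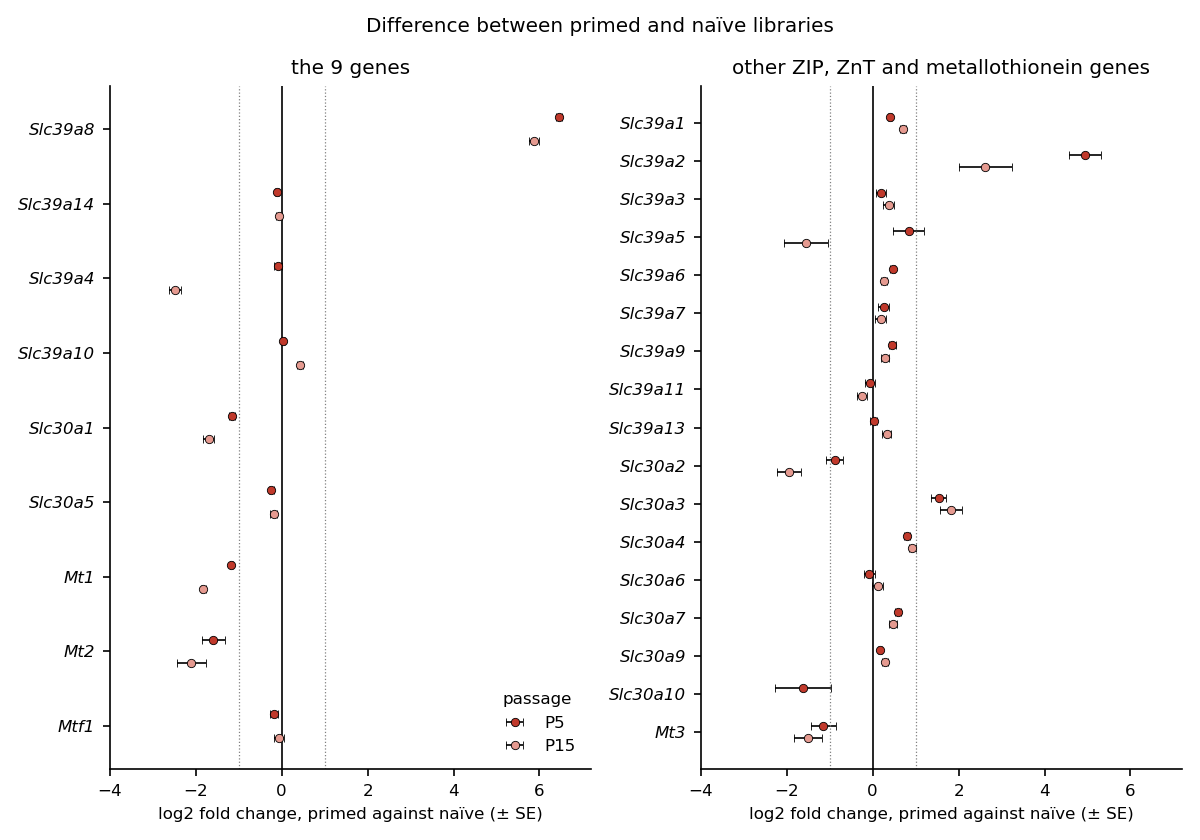
Log2 fold change of primed over naïve libraries at P5 and P15, with the SE of the edgeR fit as error bars, for the 9 genes (left) and for the other ZIP, ZnT and metallothionein genes that passed the filter at P5 (right). Dotted lines mark a 2-fold change. Slc39a8 at 6.45 and 5.87 lies farthest to the right, and most of the other transporters lie between the dotted lines.

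Slc39a2, which encodes the plasma membrane importer ZIP2, rose in primed mEpiSCs by 4.94 (SE 0.38, edgeR adjusted p = 1.3e-12) on the log2 scale at P5 and by 2.63 (SE 0.61, adjusted p = 0.00029) at P15. It was a gene of few counts, 1 to 7 in the naïve libraries, 116 and 118 in primed P5 and 23 in each primed P15 library. Leaving out 1 naïve library moved its value to 4.12 (without replicate 2) or 6.79 (without replicate 1) at P5 and to 1.98 (without replicate 1) or 3.99 (without replicate 2) at P15. Slc30a3, which encodes ZnT3, the transporter that fills synaptic vesicles with zinc, rose by 1.53 (SE 0.17, adjusted p = 2.0e-09) at P5 and 1.83 (SE 0.26, adjusted p = 1.0e-07) at P15. Slc30a2, which encodes the vesicular ZnT2 and is a target of MTF1 in other tissues, was lower at P15 by -1.95 (SE 0.28, adjusted p = 1.6e-07) and at P5 by -0.89 (SE 0.19, adjusted p = 0.00019), under the 2-fold limit there. Slc39a5 was called lower at P15 (-1.55, SE 0.52, adjusted p = 0.0087) on 5 and 10 counts in primed against 14 and 23 in naïve libraries, and the call was lost in several other settings. Between P5 and P15 in primed mEpiSCs, 3 of the 16 genes tested were called lower (7.89% of all genes) and 0 higher (2.83%), namely Slc39a2 (-2.25, adjusted p = 2.4e-07), Slc39a5 (-1.96, adjusted p = 0.00066) and Slc30a2 (-1.17, adjusted p = 0.00055). In naïve mESCs edgeR called 0 of them.

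Of the other metallothioneins, Mt3, best known from the brain, was lower in primed mEpiSCs by -1.15 (SE 0.29, edgeR adjusted p = 0.00083) at P5 and -1.51 (SE 0.32, adjusted p = 8.1e-05) at P15. It was at 3.03 to 4.27 CPM in naïve and 1.14 to 1.55 CPM in primed libraries, which did not overlap. The call at P5 was lost without replicate 1 of primed P5 (adjusted p = 0.029), in the DESeq2 test (adjusted p = 0.016) and, at a fold under 2, with scaling by library size alone. Mt4, of squamous epithelia, had 7 to 9 counts in naïve and 0 to 2 in primed libraries and did not pass the filter. Like Mt1 and Mt2, Mt3 had lower CPM in every primed than in every naïve library, as had 25.7% of 16926 genes.

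Other genes with a known tie to MTF1 or to metals did not share 1 direction. Of 5 further reported MTF1 targets (Gclc, Selenow, Csrp1, Ndrg1 and Slc40a1), 1 was called higher at each passage and 0 lower, against the same shares of all genes as for the transporters. By the adjusted p alone, 1 was higher and 1 lower at P5, and 3 were higher and 2 lower at P15. Slc30a2, counted above with the ZnT genes, is not on this list and was called lower at P15 (-1.95). Ndrg1, a stress and hypoxia gene, rose by 1.12 (SE 0.08, edgeR adjusted p = 2.3e-15) at P15 and was at -0.14 (adjusted p = 0.041) at P5. Slc40a1 (ferroportin), the iron exporter, rose by 1.66 (SE 0.10, adjusted p = 1.1e-14) at P5 and was at 0.52 (adjusted p = 0.0051) at P15. In MEFs it was at 35.9 CPM, above the 7.29 to 26.7 CPM of the naïve and primed libraries. This was 134% of the primed P5 mean and 328% of the primed P15 mean, so its level cannot be given to a single cell type. The median of the list was 0.08 at P5 and 0.45 at P15.

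Of 16 genes of iron, copper and manganese handling, on which Slc40a1 and Slc30a10 stand again, 4 were called higher and 1 lower at P5, and 3 higher and 1 lower among the 15 tested at P15. All genes were called higher in 13.5% and lower in 8.85% of cases at P5 and in 12.2% and 11% at P15. Tfrc, the transferrin receptor that takes up iron, fell by 1.78 (SE 0.04, edgeR adjusted p = 4.3e-25) on the log2 scale at P5 and by 1.77 (SE 0.06, adjusted p = 4.8e-24) at P15. Fth1, the ferritin heavy chain that stores iron, rose by 1.10 (SE 0.03, adjusted p = 3.6e-22) and 1.26 (SE 0.05, adjusted p = 1.2e-21), though its processed copies in the genome make its count uncertain. Slc25a37 (mitoferrin), which brings iron into mitochondria, rose by 2.20 (SE 0.05, adjusted p = 1.0e-24) and 1.19 (SE 0.09, adjusted p = 2.4e-14). The copper exporter Atp7b rose by 1.38 (SE 0.15, adjusted p = 1.7e-09) and 1.87 (SE 0.21, adjusted p = 5.1e-10). The median of the list was 0.51 at P5 and 0.45 at P15.

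Of 8 metal and oxidative stress genes, 1 was called higher and 2 lower at P5, and 1 higher and 1 lower at P15, against the same shares of all genes, with medians of -0.58 and -0.82. Slc7a11, the cystine importer that feeds glutathione synthesis, rose by 4.89 (SE 0.10, edgeR adjusted p = 2.0e-26) at P5 and 1.66 (SE 0.16, adjusted p = 2.6e-11) at P15. The heat shock gene Hspa1a fell by 3.73 (SE 0.08, adjusted p = 6.4e-26) and by 1.15 (SE 0.13, adjusted p = 1.8e-09). Its near-identical copy Hspa1b fell by 2.65 (SE 0.07, adjusted p = 1.5e-23) at P5 and was at -0.91 (adjusted p = 8.4e-09) at P15, and reads of the pair may be split between them. By the adjusted p alone, 2 of the 8 were higher and 5 lower at P5, and 1 higher and 7 lower at P15.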

How the data were processed

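RNA-seq of 9 libraries was used, with 2 each of naïve and primed cells at passages 5 and 15 and 1 of MEFs, grouped by the labels. Whether the 2 libraries of a group are separate cultures is not in the labels, so p-values measure the spread between libraries, which may be technical. The deposited table holds raw counts per gene. Per the labels and methods, the authors made them from reads trimmed with Cutadapt, aligned with HISAT2 to mm10 and counted with featureCounts. Its strand and multiple-alignment settings and annotation release are not given in the sources used here.

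Names, positions and exon lengths came from GENCODE M21 (GRCm38), promoters from RefSeq (GRCm38.p6). Of 54232 IDs, 67 had no symbol, and 92 spike-in entries, all at 0, were left out. R 4.3.3 with edgeR 4.0.16 (quasi-likelihood test, TMM, a filter of 10 or more counts in 2 or more libraries of the fit, Benjamini-Hochberg adjustment over all genes tested) was used, with limma 3.58.1 as its base and DESeq2 1.42.0 as an alternative. A call needs an adjusted p under 0.01 and a fold of at least 2. Each passage was fitted on its 4 libraries, and passage effects and differences between passages on all 8. The MEF library entered no fit. The fits were also run on simulated data, but no result of these runs is given here. Intervals and limits cover counting error only.

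The 9 genes and all lists were chosen with earlier results of these data known. Named beside the 9 were all called genes of a list, at most 6 a list, and the 3 nearest profiles (mean of at least 10 CPM, pseudocount 1) for 5 of the genes. Alternatives were other scalings, no filter, DESeq2, all 8 libraries, a replicate block, a feeder share of the MEF profile taken off, and leaving out each library.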

Additional observations from a re-analysis of the deposited data

Results flagged for a closer look

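Of the listed genes named above for a call at P5 or P15, 6 were also called for a difference of the state effect between passages. The test was the interaction term of edgeR's quasi-likelihood fit over the 8 libraries, adjusted over 16926 genes. Of all these genes, 7.16% were called in either direction. Genes of the lists that were called at neither passage were not looked at here. The 8 metal and oxidative stress genes had 2 interaction calls up and 2 down, not all of them named below. In the heat shock genes Hspa1a (2.59, SE 0.15, adjusted p = 6.7e-15) and Hspa1b (1.76, SE 0.13, adjusted p = 3.6e-12) the log2 fold change was less negative at P15. The CPM of Hspa1a were 84.6 and 88.5 in naïve P5, 19.5 and 19.8 in naïve P15, and 6.36 to 9.18 in primed libraries, so the naïve libraries moved most. In Slc7a11, the cystine importer, the difference was -3.22 (SE 0.21, adjusted p = 8.9e-14), with 75.4 and 82.4 CPM in primed P5 and at most 16.5 CPM in primed P15. Ndrg1 gave 1.27 (SE 0.10, adjusted p = 2.7e-12) and the iron exporter Slc40a1 gave -1.13 (SE 0.18, adjusted p = 8.6e-06). MEFs held Slc40a1 at 35.9 CPM, above all 8 libraries. The importer Slc39a5 gave -2.38 (SE 0.64, adjusted p = 0.0041) on 5 to 32 counts in a library. All naïve and primed groups hold 2 libraries, too few to look for single outlying libraries.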

How the results depend on the processing

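With scaling by library size alone, the median log2 fold change of the 9 genes was 0.020 at P5 and -0.079 at P15, and with the median feeder share taken off it was -0.36 at P15. Leaving out 1 library each gave -0.21 to -0.13 at P5 and -0.27 (without replicate 1 of naïve P15) to -0.13 at P15. Of the other ZIP and ZnT genes, 1 to 3 were called at P5 and 2 to 5 at P15 when 1 library was left out. The lowest counts came without either primed library, where Slc39a2 no longer passed the filter and, at P15, Slc39a5 was not called. Library size alone also raised the share of calls higher in primed cells from 60.4% to 72.5% at P5. Fits with the replicate block called 3663 genes at P5 and 3367 at P15, against 3680 and 3646 without it, and 2 and 3 other ZIP and ZnT genes. Deviations of same-numbered libraries correlated at -0.12 and -0.14 between the 2 states and at 0.14 between passages within each state, over 12529 genes, and with 2 libraries a group the numbers were not taken to pair them. With the numbers crossed, an alternative chosen after seeing the data, 3691 and 3647 genes were called. The Slc39a5 call at P15 was lost with the block (adjusted p = 0.028), with DESeq2 (0.081), with library size alone (0.015), with the lowest feeder share taken off (0.018) and without 3 of the 4 libraries in turn. Its interaction was lost with DESeq2 and without 5 of the 8 libraries. The cause was not tested. The Slc40a1 interaction dropped under 2-fold with the lowest feeder share taken off (-0.94). Of 878 alternative values in all, 801 were classed as the same, 47 as moved, 12 as stronger, 17 as weaker and 1 as reversed. These classes were set by rule, and a value classed as the same need not equal the main one.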

Other observations

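Of the 9 genes, Slc39a14, Slc39a4, Slc39a10, Mt1 and Mt2 were lower in MEFs than in all 8 naïve and primed libraries, Slc30a5 was higher, and Slc39a8, Slc30a1 and Mtf1 lay within their range. Of the other 10 ZIP genes, 8 were higher in MEFs than in all 8 libraries and 2 lay within the range, where 28.6% of 16926 genes were higher and 32.1% lower. Slc39a1, at 81.3 to 150.4 CPM in the naïve and primed libraries, was at 226 CPM in MEFs. Slc39a13, which encodes an importer of the secretory pathway needed in connective tissue, was at 72.5 CPM in MEFs against 22.9 to 36.2 CPM. Of the other 8 ZnT genes, 3 were higher in MEFs than in all 8 libraries (Slc30a4, Slc30a6 and Slc30a7), 3 lower (Slc30a2, Slc30a3 and Slc30a10) and 2 within the range. Slc30a4 was at 67.2 CPM in MEFs against 29.9 to 64.1 CPM, and Slc30a3 at 0.0851 CPM against 1.41 to 10.2 CPM. With 1 MEF library these differences have no replicate check.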
